A study of Mus musculus with 6 samples.

Results

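The 9 genes described here encode transcription regulators that set the segment border and pattern the somite: Mesp1, Mesp2, Tbx18, Uncx, Tcf15, Meox1, Meox2, Pax3 and Eya1. They were chosen by name, and 9 of the 9 have a probe that the annotation assigns to 1 gene, among 13840 genes with such a probe. Each gene is represented by 1 probe. RNA was taken from presomitic mesoderm, the strip of still unsegmented tissue near the tail that pinches off somites at its front, and was hybridised to one-colour arrays. Knockout embryos, in which LacZ had taken the place of the Nrarp coding region through homologous recombination, were compared with wild-type littermates, all at embryonic day 10.5 and all from matings of heterozygous parents. Each genotype had 3 arrays numbered 1 to 3, and 12 presomitic mesoderms were collected per genotype. Whether each array held RNA of its own embryos or a share of a common pool is not stated. The p-values therefore describe the spread among these arrays, and that spread may be technical. The strain is not given in the sources used here, and the deletion was present in every cell of the embryo and not in the presomitic mesoderm alone. The design asks how loss of Nrarp, a small protein that Notch signalling induces and that acts back on it, bears on segmentation.

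A somite forms when Notch activity and the T-box factor Tbx6 switch on the Mesp genes in a stripe of the anterior presomitic mesoderm. Mesp2, a basic helix-loop-helix factor, places the border there, gives the cells next to it rostral character and shuts down Notch signalling in them. The new somite then becomes epithelial and is divided into a rostral and a caudal part and into precursors of vertebrae, muscle and dermis, and the other genes of this group act in those steps.

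The proximal promoters of Mesp1, Mesp2 and Tbx18 are shown because these genes stand at the border itself and on its rostral side. They are the 250 bases before the start site in RefSeq, build GRCm38.p6, read 5′ to 3′ on the strand of the gene. Capitals mark matches, on either strand, to the E-box CANNTG, which basic helix-loop-helix proteins bind, to TCACAC, a core of T-box sites, and to TGGGAA, a core of sites for RBPJ, the DNA-binding partner of Notch. Mesp1 (chr7:79793591-79793840, minus strand) and Mesp2 (chr7:79810477-79810726, plus strand) are neighbours that point away from each other, with start sites 17137 bases apart and 0 annotated genes between them. Tbx18 lies at chr9:87731261-87731510 on the minus strand.
Mesp1: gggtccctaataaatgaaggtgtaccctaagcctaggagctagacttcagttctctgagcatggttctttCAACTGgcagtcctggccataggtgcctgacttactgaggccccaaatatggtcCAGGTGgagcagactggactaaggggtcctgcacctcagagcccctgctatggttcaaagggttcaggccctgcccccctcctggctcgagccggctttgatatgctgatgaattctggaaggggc
Mesp2: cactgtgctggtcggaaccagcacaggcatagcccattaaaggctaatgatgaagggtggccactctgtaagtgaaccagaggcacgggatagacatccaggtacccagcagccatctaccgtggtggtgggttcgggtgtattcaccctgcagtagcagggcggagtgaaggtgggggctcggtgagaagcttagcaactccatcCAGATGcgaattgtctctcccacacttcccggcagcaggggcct
Tbx18: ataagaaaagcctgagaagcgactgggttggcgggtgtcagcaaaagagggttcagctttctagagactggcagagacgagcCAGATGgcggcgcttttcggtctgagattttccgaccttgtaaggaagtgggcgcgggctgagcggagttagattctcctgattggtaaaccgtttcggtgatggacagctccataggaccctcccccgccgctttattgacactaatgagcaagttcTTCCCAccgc

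The Mesp1 window held 2 E-box matches and those of Mesp2 and Tbx18 held 1 each. Tbx18 had 1 match to the RBPJ letters, read as TTCCCA on its own strand, and the Mesp1 and Mesp2 windows had 0. The T-box letters occurred in none of the 3 windows. Of 32851 promoter windows of the same length, 66.2% held an E-box, 12.3% the T-box letters and 21.6% the RBPJ letters, and no match overlapped another in these 3 windows. A match is a description of letters and not a site of binding. Of the other members, Meox2 and Uncx also have an entry in the promoter table, while Tcf15, Meox1, Pax3 and Eya1 do not. The Meox2 window had 1 match to the RBPJ letters and 1 E-box match, and the Uncx window had 0 matches to any of the 3.

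Before the results by gene, a few facts bear on all of them. Intensities are on a linear scale and had been scaled so that the median of each array lies just under 1 (0.981 to 0.993), so a value below 1 marks a dim probe. The replicate 1 arrays of both genotypes stood apart from the other 4. Their 75th percentile was 56.9 and 42.7 times their 10th in knockout and wild type, against 12.4 to 16.0 times on the rest. The Nrarp probe read 14.3, 42.5 and 23.3 on knockout arrays and 318, 429 and 448 on wild-type arrays, although whether it lies in the replaced part is not given in the sources used here. All 10 measured markers of posterior presomitic mesoderm and tailbud exceeded the array median on every array. The summed intensity of these markers was 1191 to 1218 in knockout and 1073 to 1220 in wild type, so the groups overlapped. Tbx6 was the largest term of that sum on every array, with a log2 difference, knockout minus wild type, of 0.23. The median difference of the list was -0.08, with 3 markers above 0 and 7 below. In bulk tissue, fewer cells of a type and less RNA per cell cannot be told apart.

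None of the 9 genes passed the test between knockout and wild type. In limma, over all 33012 probes and with genotype as the only term, 0 of 9 reached an adjusted p of 0.05, against 0% of all probes. With the replicate number as a block the count was again 0 of 9, against 0.00606% (2 probes, Nrarp and Hes5). At an unadjusted p under 0.05 the counts were 0 of 9 without the block, against 0.657% of probes, and 2 of 9 with it (Mesp2 and Tbx18), against 3.75%. Which genes these were depended on the variance prior. In the blocked limma fit without an intensity trend the unadjusted p was 0.108 for Mesp2, 0.0111 for Tbx18 and 0.0128 for Eya1. In that fit 1492 of the 33012 probes had an unadjusted p under 0.05. Each of the 9 genes had a limma adjusted p of 1.00 in the fit on genotype alone and 0.999 in the blocked fit. The log2 differences, knockout minus wild type, were positive for 5 genes and negative for 4, and ran between -1.02 for Tbx18 and 0.93 for Eya1. Their median was 0.19, against -0.01 over all probes. The median size, without regard to sign, was 0.29 for the 9 genes and 0.22 for all probes.

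**Figure D1:**
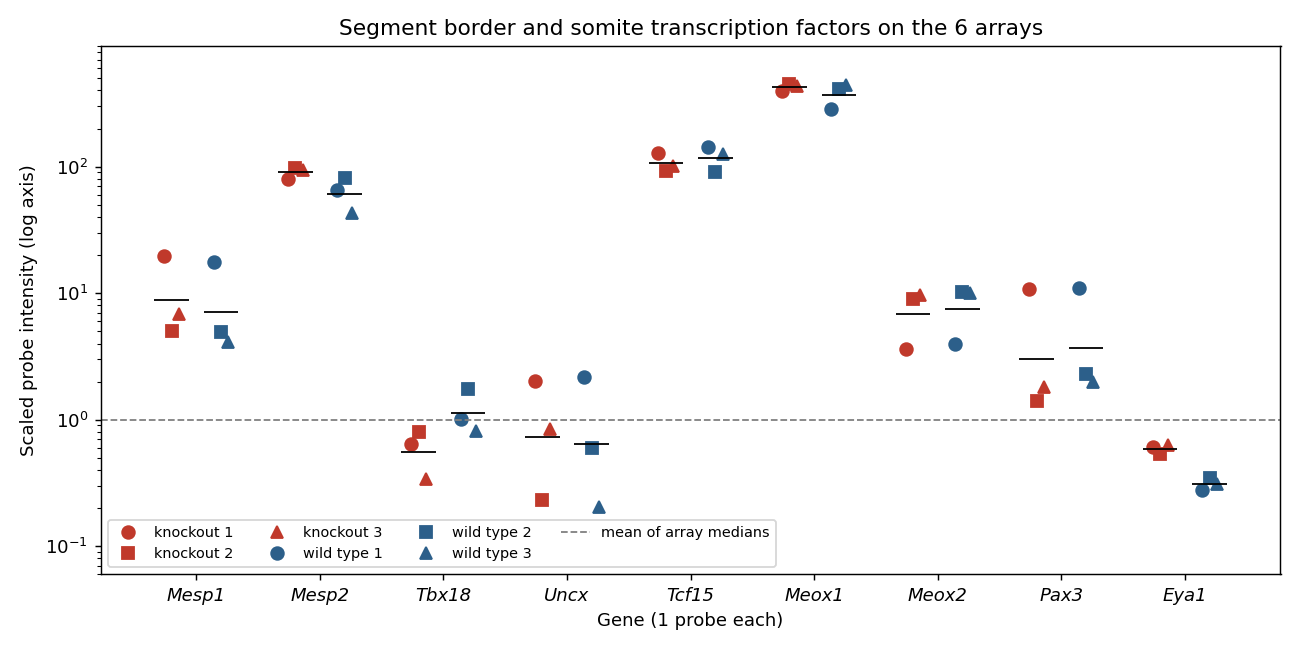
Scaled probe intensity (log axis) of the 9 genes on the 3 knockout arrays (red, left of each gene) and the 3 wild-type arrays (blue, right). Marker shapes give the replicate number, black bars the geometric mean of each group and the dashed line the mean of the array medians. The groups are separate only for Tbx18 and Eya1, both dim, and the replicate 1 arrays (circles) lie outside the range of the others for 6 genes, among them Mesp1, Pax3, Uncx and Meox2.

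Of the border genes, Mesp2 exceeded the 75th percentile of every array and averaged more in knockout. It read 79.9, 98.1 and 93.2 on the knockout arrays, against 64.8, 81.5 and 43.0 on the wild-type arrays. The lowest knockout array was just below the highest wild-type array, so the groups overlapped, and the third wild-type array was the lowest of the 6. The means were 90.4 ± 9.44 in knockout and 63.1 ± 19.3 in wild type (SD, n = 3 each), and the geometric means differed 1.48-fold (95% interval 0.904 to 2.41 without the block, 1.13 to 1.93 with it). Each pair of arrays with the same number had a positive log2 difference, of 0.30, 0.27 and 1.12. The exact permutation test gave p = 0.2 (two-sided), where 3 against 3 arrays cannot go below 0.1. The log2 difference was 0.56 over all arrays and 0.31 without wild-type replicate 3. It was 0.69 with the replicate 1 arrays of both genotypes left out (adjusted p = 0.782 in limma with the block).

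Mesp1 encodes a close relative of Mesp2 that is known for its role in early mesoderm and heart progenitors and is also expressed in the somite border stripe. It read 19.6, 5.05 and 6.88 in knockout, against 17.5, 4.96 and 4.09 in wild type. Here the first array of each genotype was the high one, and the other 4 lay between 4.09 and 6.88. The log2 difference was 0.31 (SE 0.709), a ratio of 1.24 with a 95% interval of 0.397 to 3.89 without the block and 0.897 to 1.72 with it. The difference turned to -0.27 without knockout replicate 1 and to -0.08 without wild-type replicate 3.

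Tbx18, a T-box repressor that keeps the rostral part of the somite distinct from the caudal part, was separate between the genotypes. It read 0.645, 0.796 and 0.339 on knockout arrays, against 1.01, 1.76 and 0.812 on wild-type arrays. Every knockout array was below every wild-type array, although the highest knockout value and the lowest wild-type value were close. Means were 0.593 ± 0.233 in knockout and 1.20 ± 0.50 in wild type (SD, n = 3 each). The log2 difference was -1.02 (SE 0.545 without the block), which left 0.493 of the wild-type level (95% interval 0.205 to 1.19, and 0.245 to 0.991 with the block). All pairs were negative, at -0.65, -1.15 and -1.26, and the exact permutation test gave p = 0.1 (two-sided), the smallest possible. The probe exceeded the array median on 2 of 6 arrays, both wild type, and adding 1 to each intensity before taking log2 reduced the difference to -0.45. On knockout replicate 3 its reading (0.339) was below the 10th percentile of the array (0.368).

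Uncx, a homeobox gene of the caudal part of the somite that is needed for pedicles and proximal ribs, had no stable direction. It read 2.02, 0.232 and 0.840 in knockout, against 2.18, 0.596 and 0.206 in wild type. Only the replicate 1 arrays exceeded the array median. The pair differences ran over -0.11, -1.36 and 2.03 on the log2 scale. The ratio was 1.14, with a 95% interval of 0.209 to 6.20, which spans several-fold changes in either direction.

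**Figure D2:**
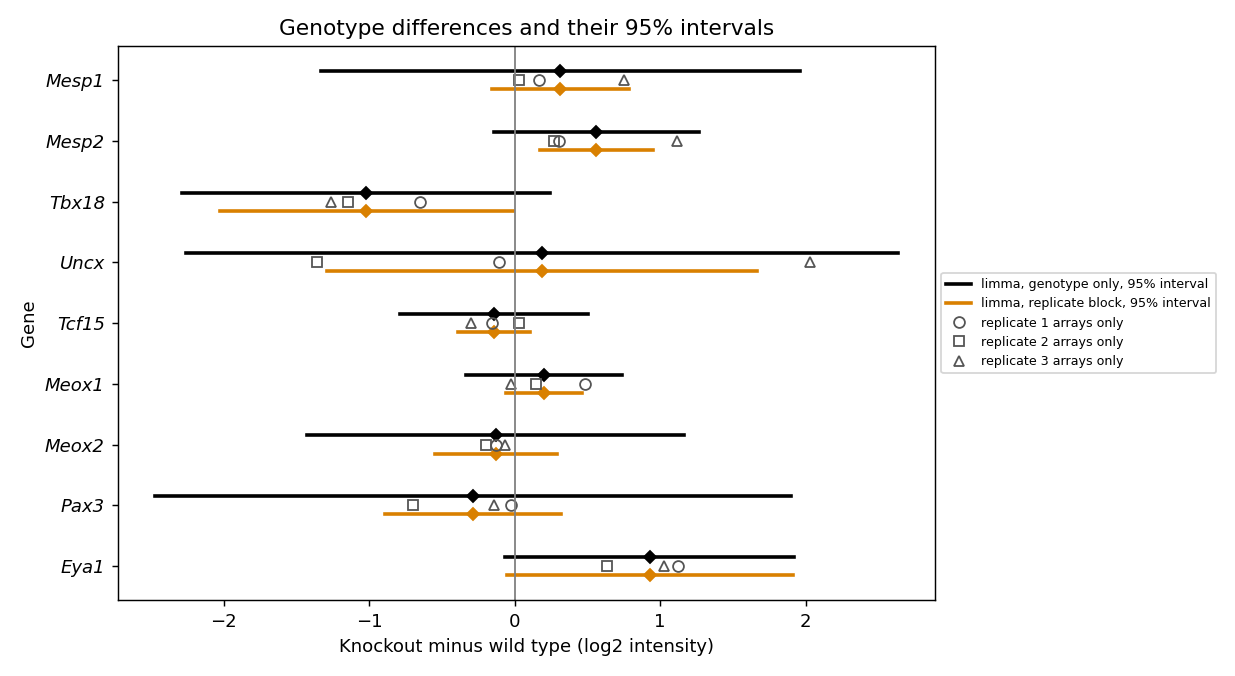
Knockout minus wild type in log2 intensity for each gene. Diamonds and bars give the limma estimate with its 95% interval, without the replicate term (black) and with it (orange), and open symbols give the difference within each replicate number. With the replicate term the interval lies above 0 for Mesp2 and below 0 for Tbx18, and it crosses 0 for the other 7 genes.

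Tcf15 and Meox1, genes of the forming somite, exceeded the 75th percentile on all 6 arrays. Tcf15, known as paraxis, is a basic helix-loop-helix factor required for somites to become epithelial. It read 129, 91.8 and 102 in knockout, against 144, 90.0 and 126 in wild type. The ranges nearly coincided, with means of 108 ± 19.3 in knockout and 120 ± 27.4 in wild type (SD, n = 3 each). The ratio was 0.906, with a 95% interval of 0.579 to 1.42 without the block and 0.761 to 1.08 with it.

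Meox1 and Meox2 are related homeobox genes that act together in sclerotome and muscle formation. Meox1 read 397, 450 and 431 in knockout, against 284, 407 and 439 in wild type. The first wild-type array was the low one, and without it the log2 difference was 0.01 in place of 0.20. The ratio was 1.15 (95% interval 0.793 to 1.66 without the block, 0.958 to 1.38 with it). Meox2 read 3.62, 8.96 and 9.63 in knockout, against 3.96, 10.3 and 10.1 in wild type. Each knockout array was slightly below the wild-type array of its number, by 0.13, 0.20 and 0.07 on the log2 scale, and the groups overlapped. The ratio was 0.913 (95% interval 0.372 to 2.24 without the block, 0.683 to 1.22 with it).

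Pax3, a paired-box gene of the dermomyotome and of muscle precursors, read 10.8, 1.41 and 1.81 in knockout, against 11.0, 2.30 and 2.00 in wild type. Within each number the knockout array was the lower, and the log2 differences were -0.02, -0.70 and -0.14. The ratio was 0.819, with a 95% interval of 0.180 to 3.73 without the block and 0.539 to 1.24 with it. Pax3 is also a gene of the dorsal neural tube and neural crest. Markers of those cells (5 of 8 measured) gave 0 calls and a median log2 difference of 0.12. Their summed intensity was 13.2 to 19.5 in knockout and 13.6 to 22.9 in wild type, and 2 of the 5 exceeded the array median on every array. Msx1, the largest term of that sum on every array, had a log2 difference of -0.33, while 3 of the 5 markers were above 0. The part of those cells in the Pax3 values was not tested.

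Eya1, a coactivator and phosphatase that works with homeobox proteins of the sine oculis family in somites and other tissues, was dim and separate between the genotypes. It read 0.607, 0.538 and 0.625 in knockout, against 0.279, 0.346 and 0.308 in wild type. The lowest knockout array was above the highest wild-type array, and all 6 readings were below the array medians. The readings on wild-type replicates 2 and 3 (0.346 and 0.308) were even below the 10th percentiles of those arrays (0.349 and 0.368). Means were 0.590 ± 0.0462 in knockout and 0.311 ± 0.0340 in wild type (SD, n = 3 each). The ratio was 1.90 (95% interval 0.954 to 3.79 without the block, 0.962 to 3.76 with it), and the pairs gave log2 differences of 1.13, 0.64 and 1.02. The exact permutation p was 0.1 (two-sided), and adding 1 to each intensity reduced the log2 difference from 0.93 to 0.28.

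Across the 9 genes, the groups were separate for 2, one in each direction (Eya1 higher and Tbx18 lower in knockout). Over all probes the share of separate groups was 3.78% (2.04% with knockout higher and 1.74% with knockout lower), and among probes below the median level, where both genes lie, it was 4.44%. All 3 pairs had one sign for 6 of the 9 genes, 3 positive (Mesp1, Mesp2, Eya1) and 3 negative (Tbx18, Meox2, Pax3), against 23.7% of all probes (13.2% positive and 10.5% negative). Pairs are arrays of the same number, and the correlations between arrays did not tell pairs 2 and 3 apart. A log2 difference larger than 0.5 in size was found for Mesp2, Tbx18 and Eya1, against 22.3% of all probes. Of the 6 genes above the median probe level it was found for Mesp2, against 13.1% of such probes.

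**Figure D3:**
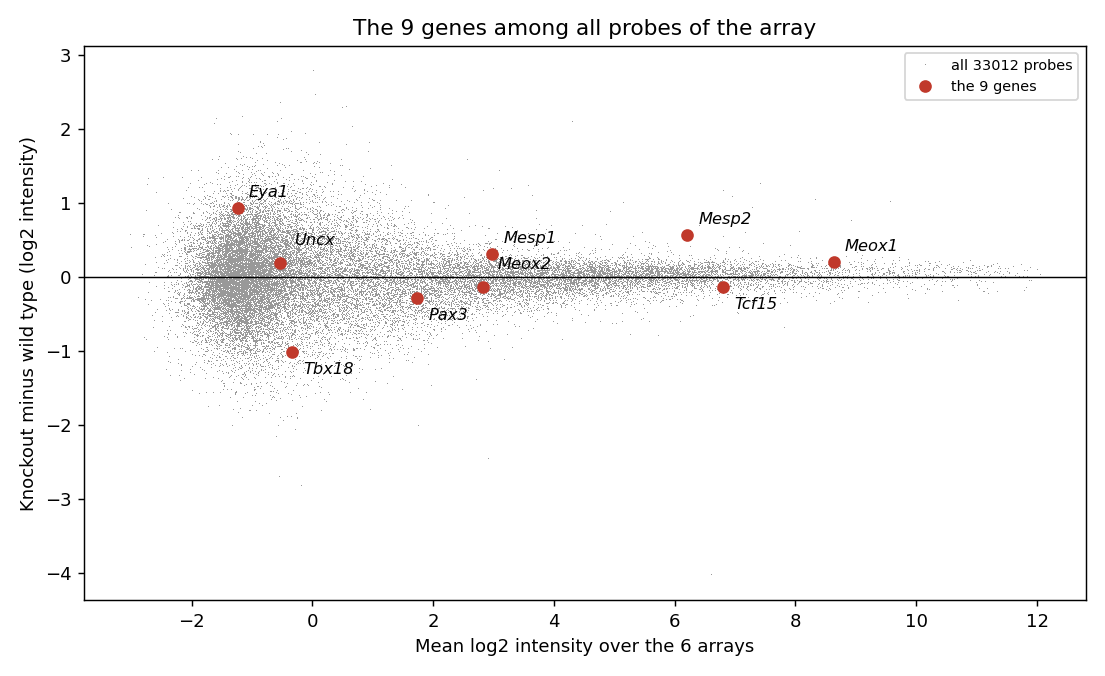
Log2 difference between knockout and wild type (vertical) against the mean log2 intensity over the 6 arrays (horizontal) for all 33012 probes (grey) and the 9 genes (red). Eya1, Tbx18 and Uncx lie among dim probes, where differences scatter widely, and Mesp2, with a difference of 0.56, lies among bright probes, where most differences are small.

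Genes that act around the border were compared in the same fits. Of 22 listed members of the border circuit, 18 were measured, and 0 passed in either direction with or without the block. Their log2 differences had a median of 0.11, with 12 above 0 and 6 below. In the fit on genotype alone the smallest unadjusted p-values belonged to Efnb2, an ephrin ligand of the somite border, and Snai1, a repressor of epithelial genes. Efnb2 read 1.10, 0.549 and 0.75 in knockout, against 1.75, 0.927 and 1.19 in wild type, a log2 difference of -0.70 that was negative in all pairs (-0.68, -0.76 and -0.66). Its probe was dim, with readings on both sides of the array medians, and the groups overlapped. Snai1 read 30.9, 18.5 and 13.3 in knockout, against 25.3, 10.9 and 6.54 in wild type, a log2 difference of 0.69. Knockout was higher than wild type for Snai1 within each number, although the groups overlapped. In the blocked limma fit the smallest unadjusted p-values were 0.0039 for Snai1, 0.013 for Hey1 and 0.028 for Tbx6, against 0.126 for Efnb2 (adjusted p 0.999 each). Hey1 and Tbx6 were also higher in knockout within each number, with overlapping groups.

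Genes of the later somite compartments gave 0 calls as well. Of 35 listed, 25 were measured, of which 10 had a log2 difference above 0 and 15 below, around a median of -0.07. In the fit on genotype alone the smallest p-values here belonged to the muscle determination gene Myod1, which was dim, and to Dmrt2, a dermomyotome gene. Myod1 read 1.66, 0.397 and 0.616 in knockout, against 2.10, 1.16 and 1.14 in wild type (log2 difference -0.92). Dmrt2 read 54.4, 59.1 and 49.1 in knockout, against 40.6, 35.7 and 48.0 in wild type, a log2 difference of 0.39 (SE 0.260) with an adjusted p of 1.00 in limma. Every knockout array was above every wild-type array for Dmrt2, by a small margin at the closest pair. In the blocked limma fit the unadjusted p was 0.028 for Dmrt2, 0.032 for Gli1 and 0.067 for Myod1 (adjusted p 0.999 each). Gli1 read 15.3, 15.7 and 14.2 in knockout, against 17.5, 20.9 and 20.4 in wild type. Its groups were thus separate in the other direction. So were those of Scx, narrowly, at 2.18, 2.83 and 2.65 in knockout, against 2.91, 4.74 and 2.89 in wild type. The groups overlapped for all other measured genes of the list, and 3.78% of all probes were separate in either direction.

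Markers of other tissues that express some of these 9 genes gave 0 calls in either fit. The summed intensity of 9 measured markers of lateral plate and limb bud was 12.3 to 23.5 in knockout and 11.1 to 20.7 in wild type, and their median log2 difference was -0.37. Pitx1, the largest term of that sum on every array, had a log2 difference of 0.67, while 6 of the 9 markers were below 0. For 6 markers of intermediate mesoderm the summed intensity was 8.0 to 13.4 in knockout and 7.92 to 16.4 in wild type, with a median of -0.34. For 9 neural tube markers it was 21.9 to 33.1 in knockout and 24.7 to 37.6 in wild type, with a median of -0.003. Sox2, the largest neural tube term on every array, had a log2 difference of -0.46, with 4 of the 9 above 0 and 5 below. Few of these markers exceeded the array median on every array: 2 of the 9 of lateral plate and limb bud, 1 of the 6 of intermediate mesoderm and 3 of the 9 of neural tube. The part of these tissues in the values of Tbx18, Eya1 or Uncx was not tested.

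For several of the 9 genes the arrays differed more by replicate number than by genotype. The median size of the shift between the replicate 1 arrays and the rest was 0.43 on the log2 scale for the 9 genes and 0.86 for all probes. A term for the replicate number, tested in limma with genotype in the model, passed for 4 of the 9 genes (Mesp1, Pax3, Meox2 and Tcf15), against 27.8% of all probes and 50.6% of probes above the median level. Those 4 genes are all above that level, so their count of 4 among 6 such members is to be read against the second share. The term passed with the replicate 1 arrays higher for 3 of the 9 genes, against 17.5% of all probes and 36.2% of those above the median level, and with them lower for 1, against 10.2% and 14.3%. For 6 of 9 genes both replicate 1 arrays lay outside the range of the other 4, against 59.6% of all probes.

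Each adjusted p given beside a shift below is that of the replicate term over all replicate numbers. The shift of the replicate 1 arrays alone was not tested. For Pax3 the replicate 1 arrays were above the others by 2.55 on the log2 scale (SE 0.281, limma adjusted p = 6.2e-04), or 5.87-fold. Mesp1 was 3.60-fold higher (log2 1.85, SE 0.219, limma adjusted p = 9.1e-04) and Tcf15 1.34-fold higher (log2 0.43, SE 0.116, limma adjusted p = 0.0291). Meox2 went the other way and was 2.57-fold lower (log2 -1.36, SE 0.195, limma adjusted p = 0.0026). The dim gene Uncx was 5.34-fold higher on the replicate 1 arrays but did not pass (limma adjusted p = 0.0686). When the prior for the variance took no account of brightness, only Pax3 of these genes still passed (limma adjusted p = 0.0494), against 4.23% of all probes. Over all probes the median shift of the replicate 1 arrays was -0.33, and it was -1.11 after centring on 75th percentiles, where the shift of Tcf15 turned to -0.35. Relative to the median of all probes the shifts were 2.88 for Pax3, 2.18 for Mesp1, 0.75 for Tcf15 and -1.03 for Meox2 as deposited. After quantile normalization they were 2.01, 1.22, 0.38 and -1.90 in the same order of genes. Relative to the median of probes above the median level Tcf15 shifted by 0.096.

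**Figure D4:**
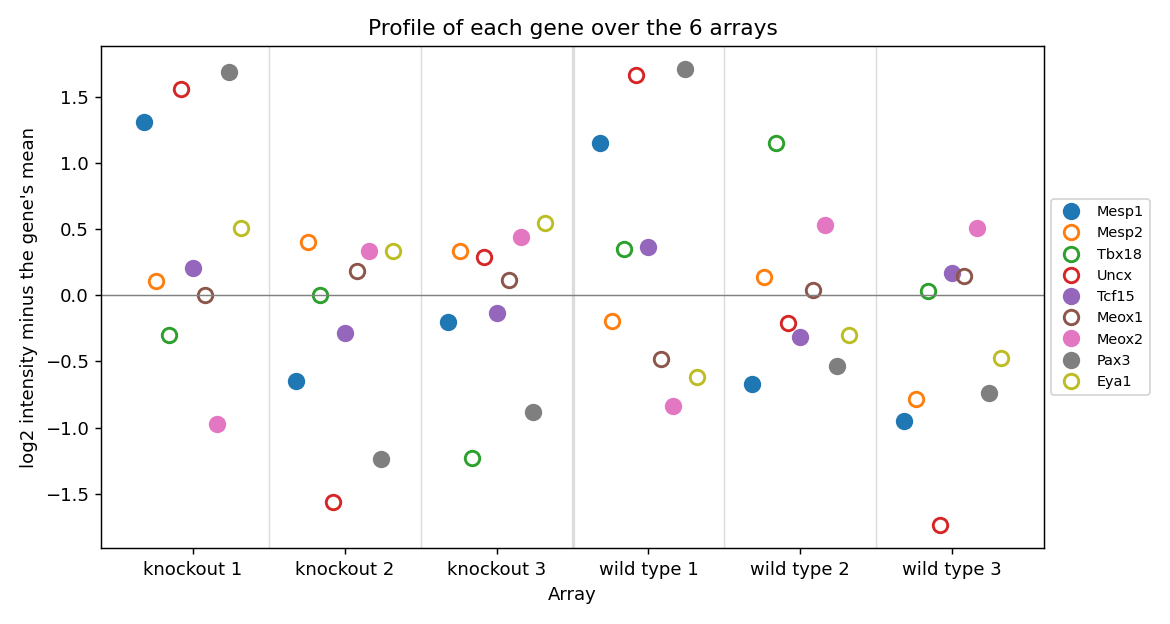
Log2 intensity of each gene minus its own mean, on the 3 knockout arrays and then the 3 wild-type arrays. Filled circles mark the genes for which the replicate term passed (Mesp1, Pax3, Meox2 and Tcf15) and open circles the others. Pax3, Uncx and Mesp1 are high and Meox2 is low on the replicate 1 array of both genotypes, and Eya1 is above its mean on every knockout array and below it on every wild-type array.

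The neighbours Mesp1 and Mesp2 can be set side by side. Mesp2 differed by -0.06 between the replicate 1 arrays and the rest (SE 0.180), and Mesp1 by 1.85, while the difference between these shifts was not tested. The replicate term over all numbers had a limma adjusted p of 0.205 for Mesp2. The related genes Meox1 and Meox2 shifted by -0.36 and -1.36, and the replicate term of Meox1 had a limma adjusted p of 0.120. Aldh1a2, which makes retinoic acid in somites and the anterior presomitic mesoderm, read 78.5, 9.22 and 8.46 in knockout, against 24.3, 3.57 and 5.48 in wild type, and so was also high on the replicate 1 arrays (log2 2.80, SE 0.230). Of the 18 border circuit genes 9 passed the replicate term, 8 of them higher on the replicate 1 arrays, and of the 25 genes of somite compartments 9 passed, 5 higher and 4 lower. The term passed for 27.8% of all probes and 50.6% of probes above the median level (17.5% and 36.2% with replicate 1 higher). Of these genes, 15 of the 18 and 11 of the 25 exceeded the array median on every array. Marker lists of other tissues moved with the replicate 1 arrays as well, in both directions.

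Of 10 markers of posterior presomitic mesoderm and tailbud 7 passed the replicate term, 6 of them higher on the replicate 1 arrays. This count and those below stand beside 27.8% of all probes and 50.6% of probes above the median level. The clock repressor gene Hes7 read 64.1 and 54.2 on the replicate 1 arrays of knockout and wild type, against 1.19 to 2.09 on the other 4, and Msgn1, a factor of presomitic progenitors, read 50.1 and 50.2, against 2.80 to 4.30. The summed intensity of that list overlapped between replicate 1 (1217 and 1116) and the rest (1073 to 1220). Tbx6, the largest term of that sum on every array, was the 1 marker that passed lower (487 and 416, against 657 to 848). The median shift of the list was 1.15. Of 7 endothelial markers 5 passed, 4 of them higher, and Pecam1, an adhesion gene of endothelial cells, read 12.5 and 11.4, against 0.503 to 2.03. The 9 neural tube markers summed to 33.1 and 37.6, against 21.9 to 31.4, with 3 passing, 2 higher and 1 lower. Sox2, which passed higher, carried that sum (23.4 and 28.0, against 7.35 to 13.6). Irx3 passed lower (1.42 and 0.846, against 2.46 to 6.64), and the median shift of the list was -0.85. The 5 dorsal neural tube and neural crest markers summed to 13.2 and 13.6, against 18.0 to 22.9. That sum was carried by Msx1, the marker of the list that passed (6.22 and 7.92, against 12.0 to 17.9), while the median shift of the list was 0.47. The share of tissue composition or array processing in these shifts was not tested, and the labels name no batch.

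The genes whose profiles came closest were sought among 8650 named genes above the median probe level, by the mean absolute difference in log2 intensity over the 6 arrays after each probe's own mean was subtracted. Dmrtc1a (0.094) and Samd8 (0.127) were nearest to Mesp2, and Pltp (0.082) and Mbd1 (0.088) to Mesp1. Nlgn2 (0.060) and Gnl2 (0.061) were nearest to Meox1, Fig4 (0.041) and Prorsd1 (0.045) to Meox2, Gpr146 (0.034) and Clu (0.034) to Tcf15, and Cd81 (0.058) and Rpa2 (0.083) to Pax3. Tbx18, Uncx and Eya1 lie below that level and took no part, and none of the other 6 genes was among the 2 nearest of another.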

How the data were processed

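The 6 one-colour Applied Biosystems arrays were hybridised with digoxigenin-labelled cRNA, per the labels' protocols. The authors deposited one linear intensity per probe, scaled to array medians just under 1 and all positive, with no gaps. The sources used here do not give the software, background correction or flags behind these values. A human array is named in the labels although the organism and the probe annotation are mouse. Of 33012 probes, 14411 carried 1 gene, 247 several and 18354 were unnamed here. Groups come from the sample titles.

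Intensities were converted to log2 with no offset, filter or further normalization. Genotypes were compared with limma 3.58.1 in R 4.3.3 (lmFit, eBayes with an intensity trend). Tests were two-sided, p-values were adjusted by Benjamini-Hochberg across the whole array, and 0.05 was the threshold. Intervals are 95% and cover the spread between arrays only, whose small number limits the precision. Replicate numbers were tested by the moderated F of the blocked fit. Deviations from group means correlated by 0.757, 0.442 and 0.374 within numbers, and on this basis numbers were taken to pair arrays. Across numbers 2 and 3 the correlations were 0.397 and 0.419, so the pairing comes from replicate 1. The scripts were tested on simulated data. Promoters come from RefSeq (GRCm38.p6), with 5 of the 9 genes matched. Summaries used pandas 2.3.3, scipy 1.17.1 and numpy 2.4.6 under Python 3.11.15.

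The members, the lists and the tests were chosen with earlier results of these data known. Named genes are the 9 members, the nearest profiles, and Nrarp and Aldh1a2 as context. Each list without a call added the 2 genes with the smallest unadjusted p in the fit on genotype alone. These are printed for the border circuit, somite compartments and notochord. Hes5 and the marker genes of the replicate comparison (Hes7, Msgn1, Tbx6, Pecam1, Sox2, Irx3, Msx1, Epcam) were named after their values were seen. The same holds for Hey1, Gli1, Scx, Pitx1 and Kdr.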

Additional observations from a re-analysis of the deposited data

How the results depend on the processing

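Over 16 other fits, 0 of the 9 genes passed an adjusted p of 0.05 in limma. The replicate block, the trend and the filter on dim probes leave the estimate as it is, and each gene has 1 probe, so averaging probes changes nothing. Of 99 values for single genes under the 11 settings that can move the estimate, 88 kept their direction and 11 turned, all 11 with a single array left out. With single arrays left out, the log2 difference, knockout minus wild type, ran from -0.27 to 0.97 for Mesp1, -0.59 to 0.32 for Meox2, -0.34 to 0.0020 for Tcf15, -1.21 to 0.50 for Pax3 and -0.64 to 1.07 for Uncx. It kept its sign at 0.31 to 0.77 for Mesp2, -1.28 to -0.66 for Tbx18, 0.85 to 1.01 for Eya1 and 0.01 to 0.32 for Meox1. The median over the 9 genes, 0.19, ran from -0.27 to 0.50 with single arrays left out. It was 0.070 with array weights, 0.24 with centring on 75th percentiles, 0.054 with 1 added to each intensity, 0.034 for the 6 genes above the median level and 0.15 with quantile normalization. It was 0.059 for replicates 2 and 3 only, with or without the replicate block. Over the whole array 0 probes passed, against 1 with array weights, 2 with the replicate block, and 2 for replicates 2 and 3 only, with or without the block. The replicate block changed no call among the 9 genes.

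For the replicate term, without the intensity trend the count of genes that passed was 1 in place of 4. The term no longer passed for Mesp1, Meox2 and Tcf15. Values in brackets here are shifts of the replicate 1 arrays (1.85, -1.36 and 0.43 for these genes). With centring on 75th percentiles, which moves all values of an array alike, Mesp2 (-0.84) and Meox1 (-1.14) passed and Tbx18 (-0.74) and Tcf15 (-0.35) turned. With quantile normalization Meox1 (-0.58) passed, Tcf15 (0.26) did not, and Eya1 (0.52) turned. With 1 added to each intensity Uncx (1.10) passed and Tbx18 (-0.034) turned. Apart from these constructions the causes were not tested. The probes of Eya1, Tbx18 and Uncx lie near or below the array medians, where differences are least precise.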

Other observations

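Markers of further cell types that could be present in the dissected tissue gave 0 calls between knockout and wild type in either limma fit. The 7 measured endothelial markers summed to 91.3 to 98.3 in knockout and 97.9 to 123 in wild type, with a median log2 difference of 0.08. Kdr, the largest term of that sum on every array, had a log2 difference of -0.26, while 5 of the 7 markers were above 0. The 7 measured markers of primitive blood, which include embryonic globins, summed to 6256 to 8478 in knockout and 7371 to 8507 in wild type, with a median of -0.25. The 6 gut endoderm markers summed to 94.0 to 174 in knockout and 112 to 160 in wild type, with a median of -0.24. Their sum was highest on the replicate 1 arrays (160 and 174, against 94.0 to 118 on the others). Epcam carried that rise (107 in knockout and 96.6 in wild type, against 32.9 to 45.7). The replicate term passed for 2 of the 6 markers, against 27.8% of all probes, and the median shift of the list was 0.18. The 2 measured notochord markers, Shh and Foxj1, summed to 6.66 to 10.05 in knockout and 6.11 to 11.3 in wild type.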
